A study of Mus musculus with 4 samples.

Results

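The genes described here are 39 immediate early and heat shock genes, the transcripts that cells make within minutes to hours of being disturbed, among the 26033 genes counted in CD45+ cells (leukocytes) of the mouse salivary gland. Members were the 39 listed gene symbols, and each symbol was found at 1 counted gene. The list holds 28 immediate early genes and 11 chaperones of the heat shock and related families. Because such genes respond to tissue digestion itself, the question was where the signature lay among the cell types and libraries, and whether it ran in parallel with the genotype. The study compared Csf2-/- mice, which lack the gene for the cytokine GM-CSF, with heterozygous Csf2+/- mice, both named C56BL/6 in the labels. All mice were 20 days old. Each of the 4 single-cell libraries was pooled from 2 mice, with 1 female and 1 male library per genotype. Cells had been released from the glands by digestion, enriched on magnetic CD45 beads and then sorted for CD45, so every group went through these steps.

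Immediate early genes need no new protein to be switched on. Kinase signals act on transcription factors that already sit in the cell, so Fos, Jun, Egr1 and their relatives appear quickly, and feedback inhibitors such as Dusp1 (a phosphatase of MAP kinases), Zfp36 (which marks cytokine mRNAs for decay) and Nfkbia (which holds NF-kappa-B in the cytoplasm) end the response. Heat shock genes are driven by heat shock factor 1 when unfolded protein draws chaperones away from it, and Hspa1a and Hspa1b, which encode nearly the same Hsp70 protein, are the classical readout. In digested tissue both groups are known to rise during dissociation.

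The 4 libraries held 111981802 to 122366588 UMIs (counted RNA molecules) and 8097 to 8965 cells each after filtering, 34436 in all, and no cell barcode was shared by all 4. Cell classes were rebuilt by clustering without the 39 members, and the 14 classes that held 50 or more cells in each library were tested. Predicted doublets, 6.71 to 11.8% of a library, had been removed. Other stress genes were left in the clustering. The leukocyte marker Ptprc, which encodes CD45, was at 322.9 to 2296 CPM (UMIs of a gene per 1000000 UMIs of its class and library) in these 14 classes and at 11.3 to 24.6 CPM in epithelial-like cells that had passed the sort. Csf2 was read at 123.3 and 139.8 CPM in ILC2-like cells of the Csf2+/- libraries and at 6.64 and 5.82 CPM in the Csf2-/- libraries. Whether those remaining reads lie outside the deleted part is not given in the sources used here. The macrophages were kept as 3 classes by their leading genes (Mrc1, Il1a and Trem2). Red cell genes also led the Trem2 class, but only through the Csf2+/- female library, where 6 red cell markers summed to 4972 CPM against at most 2.17 CPM in the others. In Il1a-led and ILC2-like cells they were highest in the Csf2-/- female library, at 1159 and 529.7 CPM. Cluster 14, led by Retnla and Fn1, was kept by number. Its cells were fewer in the Csf2-/- libraries, at 67 and 53 against 283 and 327. RNA quality measures differed with genotype: the median mitochondrial share of a cell's UMIs was higher in both Csf2+/- libraries than in both Csf2-/- libraries in 13 of 14 classes, and the median UMI count per cell in 10 of 14. The part of these differences in the results below was not tested. Values by library are always given as female, then male.

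Promoters are shown for Hspa1a and Hspa1b, whose levels moved together across libraries, and for Hsph1 and Hspe1 as other chaperones with a heat shock element. That of Fos is also shown, which with Hsp90ab1 had the broadest genotype pattern. The 150 bases before the transcription start (RefSeq, GRCm38.p6, another build than the GRCm39 of the counts) are printed 5′ to 3′. Capitals mark GAANNTTC or TTCNNGAA, the 2-unit heat shock element on either strand, its 3-unit forms GAANNTTCNNGAA and TTCNNGAANNTTC, and in Fos the TATA box TATAAA.
Hspa1a: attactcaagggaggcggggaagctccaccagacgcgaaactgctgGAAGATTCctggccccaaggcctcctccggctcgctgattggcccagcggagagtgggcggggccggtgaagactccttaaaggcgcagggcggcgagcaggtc
Hspa1b: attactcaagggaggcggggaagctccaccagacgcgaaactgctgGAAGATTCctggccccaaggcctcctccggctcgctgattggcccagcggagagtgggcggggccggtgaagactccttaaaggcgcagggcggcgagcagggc
Hsph1: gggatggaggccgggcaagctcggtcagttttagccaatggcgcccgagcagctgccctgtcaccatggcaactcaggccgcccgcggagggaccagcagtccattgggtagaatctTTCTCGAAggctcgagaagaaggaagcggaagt
Hspe1: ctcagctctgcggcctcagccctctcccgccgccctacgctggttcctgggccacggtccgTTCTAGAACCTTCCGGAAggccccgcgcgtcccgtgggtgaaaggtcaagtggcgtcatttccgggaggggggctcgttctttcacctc
Fos: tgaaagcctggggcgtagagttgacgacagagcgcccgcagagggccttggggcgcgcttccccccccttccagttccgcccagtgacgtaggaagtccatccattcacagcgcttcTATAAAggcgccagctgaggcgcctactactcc
These lie at chr17:34972157-34972306 (minus strand), chr17:34959239-34959388 (minus strand), chr5:149636337-149636486 (minus strand), chr1:55087998-55088147 (plus strand) and chr12:85473740-85473889 (plus strand). The Hspa1a and Hspa1b windows were identical at 149 of 150 positions. Their heat shock element, 1 in this window, started 104 bases before the start site, and that of Hsph1 33 bases before it. Hspe1 carried overlapping elements from 89 to 72 bases before its start, which include both 3-unit forms. Promoters were matched for 30 of the 39 members. In the 250 bases before the start, 6 of the 8 matched chaperones held a 2-unit element (Dnaja1, Hspa1a, Hspa1b, Hspd1, Hspe1 and Hsph1), as did Egr2 and Jun of the 22 matched immediate early genes, against 12.8% of 32851 promoters. A 3-unit element was found in Hspd1 and Hspe1 against 0.466% of all. The same windows held a CArG box, the site of serum response factor, in Egr2 and Zfp36 (1.47% of all) and the cAMP response element TGACGTCA in Btg2 and Dusp1 (1.55% of all). These are matches of letters, with both strands read (TATAAA on the gene's strand only), and not sites shown to be bound.

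Immediate early RNA made up the largest share of UMIs in eosinophil-like cells and macrophages and the smallest in NK and ILC1-like, B-like and alpha-beta T-like cells. The 28 genes together were at 47403, 43439, 51238 and 48046 CPM in eosinophil-like cells (mean 4.75% of all UMIs) and at 39010.1, 35606, 35066 and 30869.8 CPM in Mrc1-led macrophage-like cells (3.51%). All eosinophil-like values lay above all Mrc1-led values. Il1a-led and Trem2-led macrophage-like cells followed with means of 2.90% and 2.81%, and ILC2-like cells with 2.65%. These 3 classes overlapped each other, and the Mrc1-led range overlapped that of the Il1a-led class. Cluster 14 and cDC2-like cells came next at 2.15% and 2.12% and overlapped. Migratory dendritic-like cells (1.65%), monocyte-like cells (1.45%) and gamma-delta T-like cells (1.42%) each overlapped the neighbour in this order. cDC1-like cells (1.27%) lay below all of these and above the remaining lymphocytes. NK and ILC1-like and B-like cells overlapped at 0.948% and 0.945%, and alpha-beta T-like cells were below them at 8232, 7707, 8413 and 7448 CPM (0.795%). The eosinophil-like cells were shallow, with medians of 660 to 811.5 UMIs per cell against 8849 to 11362 in NK and ILC1-like cells, so their shares rest on 58667 to 147607 UMIs per library. Within a class the share varied widely from cell to cell. In Mrc1-led cells of the Csf2+/- male library, the 10th percentile, the median and the 90th percentile of a cell's immediate early share were 1.29%, 3.72% and 6.54%.

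Chaperone RNA was spread more evenly. The 11 chaperones together ran from 0.320% of UMIs in B-like cells to 0.824% in Mrc1-led macrophage-like cells, where they were at 9166, 7239, 9143 and 7422 CPM. Il1a-led and Trem2-led cells were at 0.733% and 0.678%, and eosinophil-like cells, the highest class for immediate early RNA, were next to last at 0.356%. Across the 14 class means, the log2 immediate early and chaperone sums had a Pearson r of 0.29, and of 0.70 without the eosinophil-like cells. This describes classes that share libraries and carries no test.

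**Figure D1:**
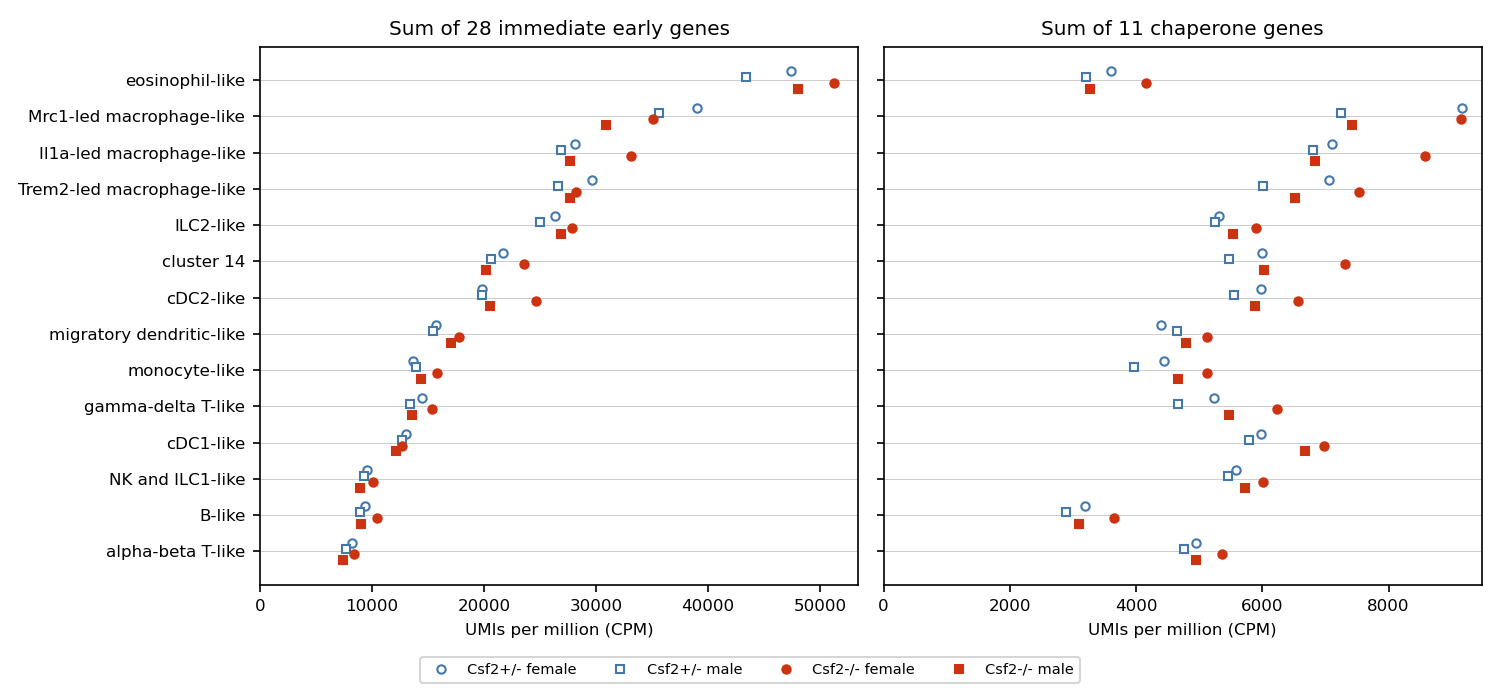
Summed levels of the 28 immediate early genes (left) and the 11 chaperones (right) in CPM, by cell class and library, with both axes from 0. Open blue symbols are Csf2+/- and filled red symbols Csf2-/- libraries, circles female and squares male. The classes differ by more than the libraries do, eosinophil-like cells are highest on the left and next to last on the right, and the Csf2-/- female library is the highest in 11 of 14 classes on the left and 13 of 14 on the right.

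AP-1 genes were highest in macrophage-like, eosinophil-like and ILC2-like cells. Fos, whose product pairs with Jun proteins to form AP-1, was at 4508, 3961, 4429 and 4106 CPM in Mrc1-led macrophage-like cells and at 2903 to 3515 CPM in the Trem2-led and 2477 to 3827 CPM in the Il1a-led class. In NK and ILC1-like and alpha-beta T-like cells it was at 425 to 537 CPM and 275 to 399 CPM. Jun had a like order of classes, from 3414 to 4235 CPM in Mrc1-led to 99.3 to 138 CPM in alpha-beta T-like cells. The Pearson r of the log2 levels of Fos and Jun over the 14 class means was 0.95. Atf3, a stress-induced repressor of cytokine genes, was instead highest in Il1a-led cells at 3772, 3464, 4106 and 3382 CPM, above all Mrc1-led values (1528 to 2169 CPM), and low in NK and ILC1-like cells at 39.6 to 45.5 CPM. Fosb was highest in ILC2-like cells at 3067, 3501, 3236 and 2970.3 CPM, a class whose Fos level was 1185 to 1813 CPM. Junb and Jund, which encode other Jun proteins, were highest in eosinophil-like cells at 5789 to 7005 CPM and 5896 to 7826 CPM. ILC2-like cells came second for both with 4374 to 5175 CPM and 2403 to 2842 CPM.

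Among the zinc finger factors and nuclear receptors, the Egr genes and the Nr4a genes marked different classes. Egr1, a growth factor response gene, was at 3676, 3188, 2732 and 2888 CPM in Mrc1-led macrophage-like cells, and B-like and alpha-beta T-like cells held 75.6 to 111 CPM and 90.4 to 104 CPM. Egr2 was highest in cluster 14 (258 to 296 CPM) and Mrc1-led cells (226 to 298 CPM), whose ranges overlapped, and was at 0.939 to 2.67 CPM in gamma-delta T-like cells. Egr3 was at 147 to 307 CPM in eosinophil-like and 163 to 321 CPM in cDC1-like cells, with overlapping values. Nr4a1 (Nur77), which in lymphocytes reports antigen receptor signals and in monocytes is needed for the non-classical subset, was highest in ILC2-like cells at 1199 to 1312 CPM and monocyte-like cells at 966 to 1065 CPM, and lowest in Mrc1-led cells at 99.7 to 148 CPM. Nr4a2 was highest in NK and ILC1-like (589 to 711 CPM) and ILC2-like cells (636 to 684 CPM). Nr4a3 was highest in migratory dendritic-like cells at 1189, 1168, 805 and 1014 CPM, with ILC2-like cells at 647 to 871 CPM. Klf2, a quiescence factor, and Klf6 were highest in eosinophil-like cells (2657 to 4336 CPM and 2805 to 3341 CPM). Klf4, a monocyte and macrophage factor, was highest in Mrc1-led cells at 949.7 to 1386 CPM, with the monocyte-like range ending just below at 781 to 948 CPM.

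Feedback inhibitors were also unevenly placed. Dusp1 in eosinophil-like cells stood at 11158, 8907, 12733 and 13339 CPM, and the next class, Mrc1-led cells, at 2519.8 to 3454 CPM. Dusp2, its lymphoid relative, was highest in migratory dendritic-like cells at 348 to 449 CPM and lowest in ILC2-like cells at 5.40 to 8.94 CPM. Zfp36 was highest in eosinophil-like cells (1890.2 to 2455 CPM) and lowest in alpha-beta T-like cells (80.7 to 84.8 CPM). Nfkbia was highest in migratory dendritic-like cells at 2062 to 2335 CPM. Btg2, an anti-proliferative gene, was at 1433 to 2092 CPM in eosinophil-like and 1427 to 1689.6 CPM in Il1a-led cells. Gadd45b, a stress sensor upstream of p38 and JNK kinases, was highest in migratory dendritic-like (1513 to 1794 CPM) and ILC2-like cells (1070.0 to 1269 CPM).

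The remaining immediate early members had narrower patterns. Ier2 was highest in Il1a-led (1241 to 1504 CPM) and Mrc1-led cells (1142 to 1334 CPM), whose ranges overlapped. Ier3, an early gene tied to cell survival, was at 876, 825, 922 and 829 CPM in Mrc1-led cells, above every other class, and at 3.73 to 5.27 CPM in NK and ILC1-like cells. Ier5 was highest in eosinophil-like cells at 1472 to 2148 CPM. Rhob, a small GTPase of the endosome, was highest in Mrc1-led cells at 606 to 828 CPM and lowest in migratory dendritic-like cells at 11.6 to 18.8 CPM. Id1, an inhibitor of basic helix-loop-helix factors, was at 48.9 to 156 CPM in eosinophil-like and 57.6 to 95.5 CPM in monocyte-like cells, with overlapping values, and at most 29.3 CPM in the other 12 classes. The retention receptor Cd69 was highest in ILC2-like cells (521 to 691 CPM), and Rgs1, which dampens chemokine receptor signals, in Il1a-led (1673 to 2148 CPM) and migratory dendritic-like cells (1614 to 2006 CPM).

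**Figure D2:**
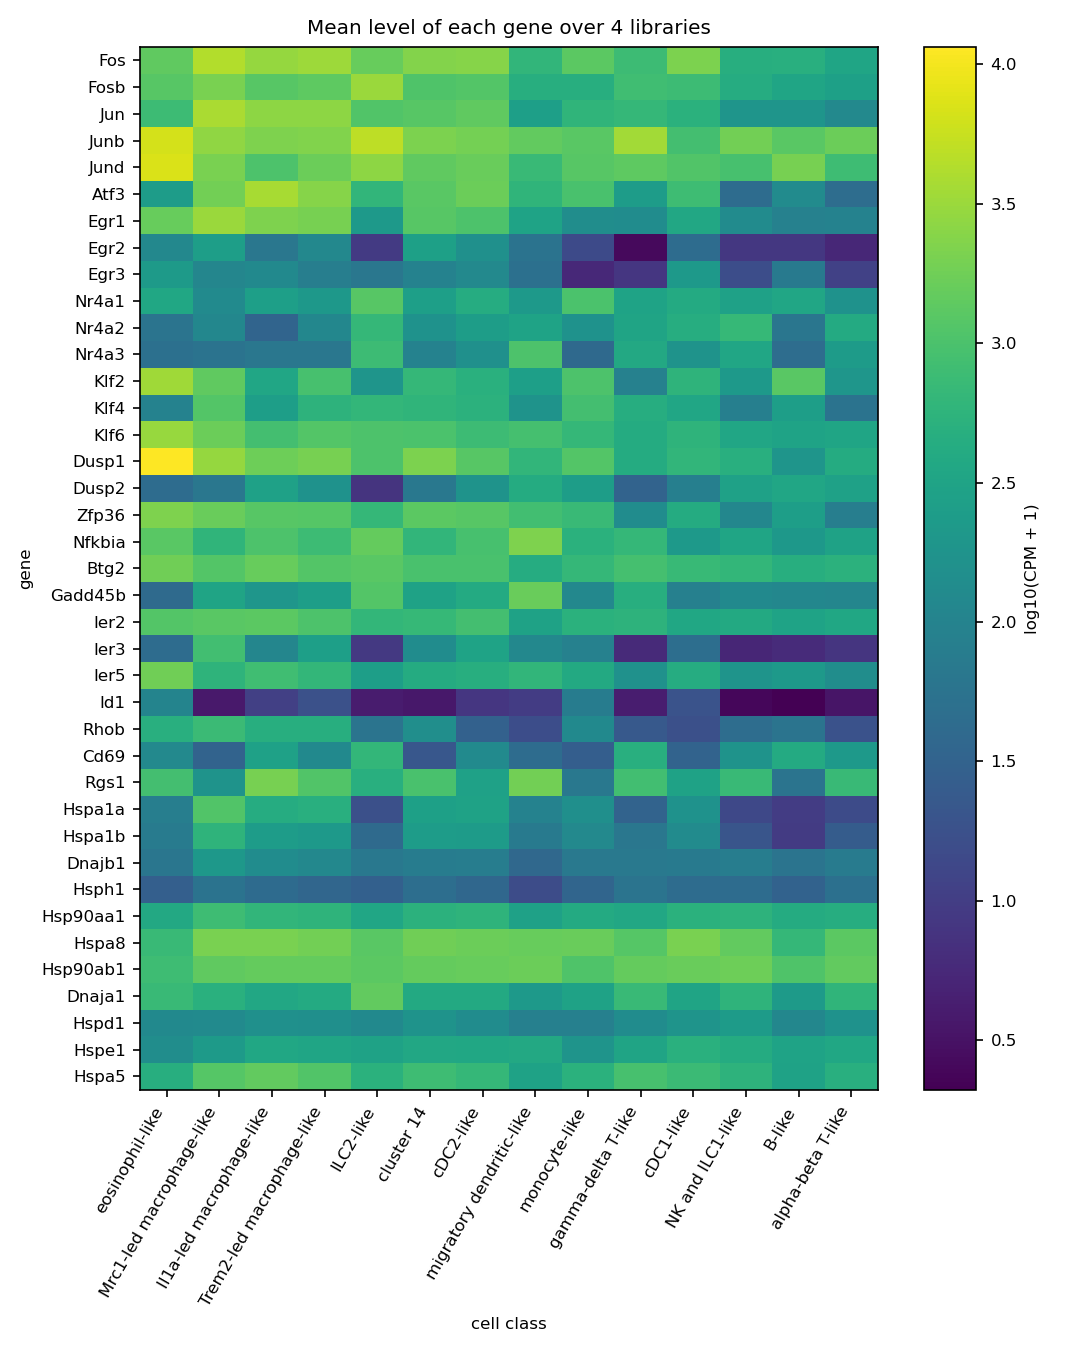
Mean level of each of the 39 genes (rows, by role) in each of 14 cell classes (columns, by falling immediate early sum), as log10 of the mean CPM over 4 libraries plus 1. Hspa1a and Hspa1b fade from the macrophage columns to the lymphocyte columns, while Hspa8 and Hsp90ab1 have class means of at least 654.3 and 791.3 CPM in every column.

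The chaperones split into an inducible pair that was high in macrophages and some other myeloid classes, and a broad housekeeping set. Hspa1a was at 1628, 946, 1273 and 562 CPM in Mrc1-led macrophage-like cells, at 328 to 591 CPM in Trem2-led, 223 to 607 CPM in Il1a-led and 156 to 425 CPM in cDC2-like cells. Migratory dendritic-like and eosinophil-like cells held only 51.3 to 151 CPM and 32.6 to 153 CPM of Hspa1a. In the 5 lymphoid classes (B-like, alpha-beta and gamma-delta T-like, ILC2-like, and NK and ILC1-like) it was at 3.87 to 60.1 CPM. Hspa1b followed Hspa1a over classes (r = 0.97 over 14 class means). Their transcripts are nearly identical, so reads may be split or lost between them and each level is uncertain. Dnajb1 and Dnaja1 encode Hsp40 partners that feed substrate to Hsp70, and their patterns differed. Dnajb1 was highest in Mrc1-led cells (152 to 245 CPM), whereas Dnaja1 was highest in ILC2-like cells at 1446, 1511, 1484 and 1404 CPM, above all eosinophil-like values (423 to 860.4 CPM). Hsp90aa1, the inducible Hsp90, was highest in Mrc1-led cells (671 to 908 CPM) and Hsp90ab1, the constitutive form, in NK and ILC1-like cells (1663 to 1829.8 CPM). Hsph1, an Hsp110 exchange factor, stayed within 0 to 74.1 CPM in the 14 classes. Hspa8, the constitutive Hsc70, ran from 594 to 777 CPM in B-like to 1749.6 to 2397 CPM in cDC1-like cells. Hspd1 and Hspe1, the mitochondrial Hsp60 and Hsp10, were highest in NK and ILC1-like (228 to 244 CPM) and cDC1-like cells (429 to 557 CPM). Hspa5, the endoplasmic reticulum chaperone BiP, was highest in Il1a-led cells at 1644, 1114, 1791 and 1325 CPM.

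Hspa1a, Hspa1b and Dnajb1 separated the libraries rather than the genotypes. In Il1a-led macrophage-like cells Hspa1a was at 462 and 471 CPM in the Csf2+/- libraries and 607 and 223 CPM in the Csf2-/- libraries. The Csf2-/- libraries were thus the highest and the lowest, with the Csf2+/- libraries between them. In cDC2-like cells the same order held at 348, 282, 425 and 156 CPM. It also held in monocyte-like cells at 194, 120.0, 212 and 72.7 CPM and in Trem2-led cells at 579.8, 395, 591 and 328 CPM. The Csf2+/- female library was highest instead in Mrc1-led cells, the class with the most Hspa1a, at 1628, 946, 1273 and 562 CPM. So it was in B-like cells, at 11.8, 8.17, 10.5 and 3.87 CPM. Hspa1a and Hspa1b were each lowest in the Csf2-/- male library in 12 of the 12 classes in which they passed the low-count filter, and Dnajb1 in 10 of 13. Over all genes and classes tested, the share with that library lowest was 21.2%. The sum of Hspa1a, Hspa1b, Dnajb1 and Hsph1 was lowest there in 14 of 14 classes and highest in the Csf2-/- female library in 12 of 14. The classes come from the same 4 libraries and are not independent. In the Csf2-/- pair the male over female log2 ratio of this sum had a median of -1.16 over classes (range -2.55 to -0.69). In the Csf2+/- pair the median was -0.35. The sum leaves out Hsp90aa1, the inducible Hsp90, and with that gene added these medians were -0.63 and -0.11. Other members with the Csf2-/- male library lowest in 10 or more classes were Ier5 (12 of 14), Btg2 (11 of 14), Fosb (10 of 14) and Gadd45b (10 of 13). In contrast, Hspe1, Hsp90ab1, Hspa8 and Hspa5 were lowest there in 0 of 14 classes and Hspd1 in 1 of 14.

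**Figure D3:**
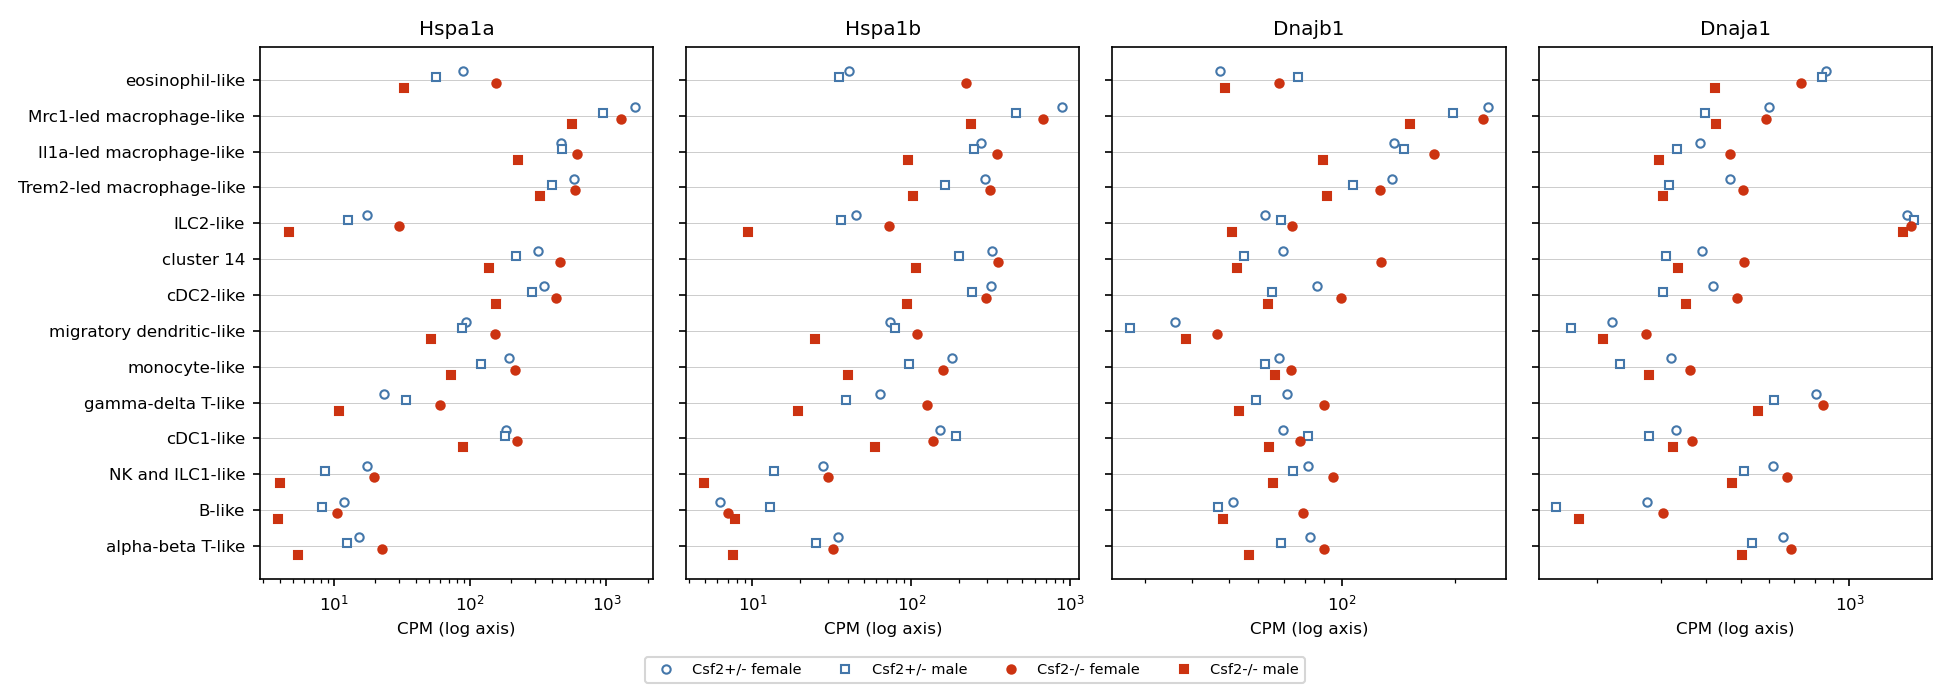
Levels of Hspa1a, Hspa1b, Dnajb1 and Dnaja1 in CPM on log axes, by cell class and library. Symbols are as in the plot of summed levels, and the value of 0 for Hspa1b in eosinophil-like cells of the Csf2-/- male library is not drawn. The Csf2-/- male library (filled squares) is the lowest for Hspa1a in each of the 14 classes, while for Dnaja1 both male libraries lie below both female libraries in 12 of 14.

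Counted per cell at equal depth, the Csf2-/- male library was again the lowest in Mrc1-led and Il1a-led macrophage-like cells. With each cell thinned to 2000 UMIs, the share of Mrc1-led cells with an Hspa1a UMI was 71.2% (66.3 to 75.7%) and 58.4% (53.9 to 62.8%) in the Csf2+/- and 66.1% (62.0 to 70.1%) and 45.7% (42.0 to 49.4%) in the Csf2-/- libraries (exact binomial 95% intervals, counting error only). Without thinning the mean share over the 4 libraries was 78.8%, against 60.3% after it. In Il1a-led cells the shares were 40.5% (36.5 to 44.5%), 37.9% (33.9 to 42.0%), 44.4% (40.8 to 47.9%) and 25.6% (22.1 to 29.4%). In Trem2-led cells they were 51.1% (44 to 59%), 36% (29 to 44%), 46.6% (40 to 53%) and 28.9% (23 to 36%) at 2000 UMIs. At 1000 UMIs they were 32.6% (26 to 40%), 27.4% (21 to 35%), 29.6% (24 to 36%) and 29.3% (23 to 36%), with overlapping intervals and the Csf2+/- male library lowest. NK and ILC1-like cells held an Hspa1a UMI in 2.45% (1.93 to 3.06%), 1.57% (1.12 to 2.14%), 2.67% (2.06 to 3.40%) and 0.671% (0.347 to 1.17%) of cells. Free RNA in the droplets can give such low shares. Hspa1a in NK and ILC1-like cells was 0.720 to 1.54% of its Mrc1-led level in the same library, and the macrophage gene C1qa 0.577 to 1.10%, with Hspa1a the higher of them in 3 of 4 libraries. No Hspa1a expression is read from the NK and ILC1-like level. In gamma-delta T-like cells Hspa1a was at 1.43, 3.55, 4.72 and 1.94% of its Mrc1-led level and C1qa at 0.664, 0.732, 0.753 and 0.707%. In ILC2-like cells Hspa1a was at 1.07, 1.33, 2.36 and 0.839% and C1qa at 0.458, 0.560, 0.857 and 0.710%. In both classes the Hspa1a share lay above the C1qa share in all 4 libraries. In eosinophil-like cells it lay below in all 4, at 5.409, 5.896, 12.05 and 5.798% against 6.572, 8.342, 16.97 and 14.19%. In alpha-beta T-like and B-like cells it lay above only in the Csf2+/- male library. The alpha-beta T-like shares were 0.932, 1.324, 1.756 and 0.973% for Hspa1a and 1.42, 1.233, 2.451 and 2.409% for C1qa. No Hspa1a expression is read from these levels either, although the counts over 14 classes include them. Fos in NK and ILC1-like cells was 9.42 to 12.1% of its Mrc1-led level, above the C1qa share in each library. The 12 epithelial markers, genes of the gland's own cells, had the same libraries at the extremes in most classes. Their sum was lowest in the Csf2-/- male library in 14 of 14 classes and highest in the Csf2-/- female library in 13 of 14. In cDC2-like cells it was at 435, 510.1, 1037 and 276 CPM, with none of the 12 at 0. There the Csf2+/- male library lay above the Csf2+/- female, the reverse of Hspa1a (348 and 282 CPM). Only in Mrc1-led cells was the sum higher in the Csf2+/- female than in the Csf2+/- male library (1004 and 938 CPM). Epithelial-like cells themselves held 9.93 to 25.1 CPM of Hspa1a, less than the cDC2-like cells in every library, and made up 0.437% and 0.976% of cells in the Csf2+/- and 2.35% and 0.840% in the Csf2-/- libraries. The part of free RNA or cell handling in the order of the libraries was not tested.

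Across libraries the members moved in groups. Taking each gene's log2 deviation from its class mean in 14 classes and 4 libraries (56 points that share libraries and depth), Hspa1a correlated with Hspa1b (r = 0.83), Dnajb1 (0.71) and Dnaja1 (0.65), and not with Hspd1 (-0.04) or Hspe1 (-0.22), although the Hspe1 promoter printed above carries 3-unit heat shock elements. Fos correlated with Jun (0.83), little with Hspa1a (0.20) and inversely with Nr4a3 (-0.67). These values are descriptions and carry no test.

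Between genotypes, 20 of the 530 pairs of a member and a class that passed the low-count filter were called (edgeR quasi-likelihood test, Benjamini-Hochberg adjusted p under 0.05), against 0.696% of 135038 pairs over all genes. Of these, 15 were higher and 5 lower in Csf2-/-. Fold differences are log2 of Csf2-/- over Csf2+/-. In this fit, which has no block for sex, no member was called in Il1a-led and Trem2-led macrophage-like, ILC2-like, NK and ILC1-like or eosinophil-like cells, where 8, 3, 11, 6 and 5 members had an unadjusted p under 0.05. DESeq2 called 0, 0, 1, 1 and 0 members in these classes and 24 pairs in all. The direction of the calls depended on which Csf2-/- library was kept. Without the Csf2-/- female library 54 pairs were called, 37 of them lower in Csf2-/-. Without the Csf2-/- male library 49 were called, of which 44 were higher. Without the Csf2+/- female library 31 were called, 19 of them higher, and in those fits the lone library of a genotype is assumed to vary like the other pair. In sums over a class, fewer cells with a transcript and less of it per cell cannot be told apart. The libraries are pools of 2 mice, so the p-values measure only the spread between such pools.

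Fos, with Hsp90ab1, had the broadest genotype pattern across classes. In monocyte-like cells it was at 1123 and 1101 CPM in the Csf2+/- libraries and 1587 and 1529 CPM in the Csf2-/- libraries. Both Csf2-/- libraries lay above both Csf2+/- libraries, and Fos rose by 0.51 (SE 0.08, adjusted p = 0.00325), a call kept under all 11 alternatives. In migratory dendritic-like cells it was at 509 and 428 CPM against 743 and 769 CPM and rose by 0.66 (SE 0.11, adjusted p = 0.031). In cDC2-like cells the groups did not overlap either, at 1998 and 1804 CPM against 3222 and 2541 CPM, but the test gave 0.62 (SE 0.14, adjusted p = 0.114). Fos lay higher in both Csf2-/- libraries in 13 of 14 classes, the exception being Mrc1-led cells at 4508 and 3961 CPM against 4429 and 4106 CPM. Over all tested genes and classes that order occurred in 21.7% of pairs, and the reverse in 18.7%. With 2 libraries per genotype, an exact two-sided permutation test of a single value cannot go below p = 0.333. Jun rose by 0.50 (SE 0.09, adjusted p = 0.00963) in monocyte-like cells, from 466 and 502 to 712 and 630.5 CPM, and lay higher in both Csf2-/- libraries in 9 of 14 classes. Hsp90ab1 did so in 13, Hspa8 and Hspe1 in 11, and Cd69, Hspd1 and Hspa5 in 9 of 14. The Csf2-/- female library was the highest of the 4 for Fos in 11 classes, and for Hspa8 in 14. The opposite order, both Csf2-/- libraries below, was found for Nr4a3 in 10 of 13 classes and for Nr4a1, Nr4a2 and Btg2 in 6 each.

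**Figure D4:**
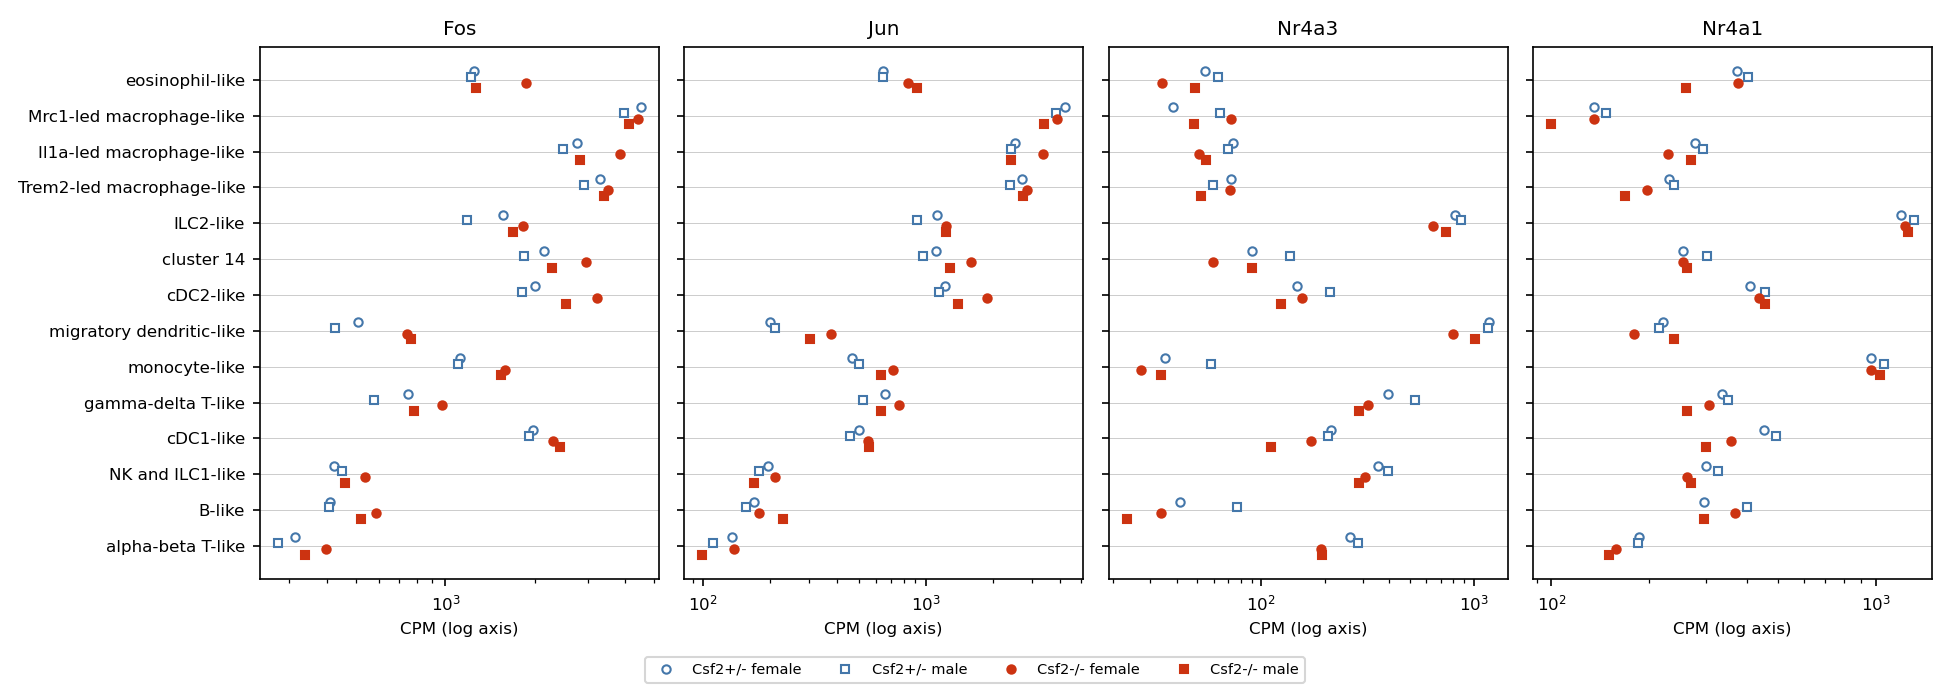
Levels of Fos, Jun, Nr4a3 and Nr4a1 in CPM on log axes, by cell class and library, with symbols as in the plot of summed levels. For Fos the filled Csf2-/- symbols lie to the right of the open Csf2+/- symbols in 13 of 14 classes, and for Nr4a3 to the left in 11 of 14 when classes below the low-count filter are counted.

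Monocyte-like cells had 4 calls among 39 members, with 0.455% of all genes called there. Beside Fos and Jun, Id1 rose by 0.67 (SE 0.11, adjusted p = 0.0063), from 57.6 and 61.9 to 90.9 and 95.5 CPM, and Hsp90ab1 by 0.39 (SE 0.08, adjusted p = 0.0247), from 955 and 928 to 1206 and 1221 CPM. In each case both Csf2-/- values were higher. The median fold difference of the members was 0.12 against 0.00 for all genes. Migratory dendritic-like cells had 1 call of 39, that on Fos, with 0.203% of all genes called. Without 1 library, the Jun call in monocyte-like cells ended (adjusted p = 0.216 without the Csf2-/- female), as did that on Hsp90ab1 without the Csf2-/- female (0.203) or male (0.342) and that on Fos in migratory dendritic-like cells without the same female (0.203) or male (0.182) library. In monocyte-like cells 7 of 13 macrophage markers were higher in both Csf2-/- libraries and 1 was lower (sum 3782 and 4334 CPM against 4735 and 4665 CPM, none at 0), and Fos in the macrophage classes was at 2477 to 4508 CPM. Of 9 non-classical monocyte markers there, 5 were lower in both and 0 higher (sum 2914 and 2939 CPM against 2672 and 2593 CPM). Of 9 classical monocyte markers 4 were higher in both and 0 lower (sum 5541 and 5757 CPM against 5673 and 6403 CPM). In migratory dendritic-like cells 9 of 13 alpha-beta T cell markers were higher in both Csf2-/- libraries (sum 124 and 47.3 CPM against 187 and 161 CPM, Foxp3 at 0), while the class's own 10 markers summed to 11841 and 11334 CPM against 9802 and 9108 CPM. Their part in these calls was not tested. DESeq2 gave Id1 in monocyte-like cells an adjusted p of 0.106.

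Dendritic cells and cluster 14 carried most of the other calls. In cDC2-like cells 3 of 39 members were called, against 3.26% of all genes, beside 7.69% of the members. Cd69 rose from 95.8 and 105 to 175 and 141 CPM, by 0.67 (SE 0.11, adjusted p = 0.0111), Ier2 from 756 and 767 to 1069.7 and 919 CPM, by 0.40 (SE 0.09, adjusted p = 0.0237), and Id1 by 1.24 (SE 0.23, adjusted p = 0.0111), from 40 and 31 to 70 and 69 UMIs per library. In cluster 14, 3 of 38 members were called (7.89%) against 3.12% of all genes. Dusp2 rose from 37.3 and 30.1 to 110.0 and 80.0 CPM, by 1.55 (SE 0.19, adjusted p = 0.000767), Ier2 from 561 and 548 to 805 and 800.5 CPM, by 0.56 (SE 0.10, adjusted p = 0.00517), and Nfkbia from 534 and 499 to 722 and 665 CPM, by 0.45 (SE 0.11, adjusted p = 0.0288). The Dusp2 and Ier2 calls were kept under all 9 alternatives that hold this cluster. In cDC1-like cells 4 of 39 were called against 1.11% of all genes, with Cd69 higher, from 19.6 and 21.8 to 44.2 and 41.2 CPM (1.01, SE 0.20, adjusted p = 0.0133). Nr4a1 fell there from 453 and 492 to 358 and 299 CPM (-0.55, SE 0.11, adjusted p = 0.0207), Rgs1 from 372 and 339 to 220.3 and 279 CPM (-0.54, SE 0.11, adjusted p = 0.0207) and Btg2 from 778 and 777 to 606 and 574 CPM (-0.43, SE 0.10, adjusted p = 0.0374). The groups did not overlap for any of these genes.

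Several of these calls rested on single libraries. In cDC2-like cells they ended without the Csf2+/- female (Cd69 adjusted p = 0.197, Ier2 0.238, Id1 0.15) or the Csf2+/- male library (Cd69 0.172, Ier2 0.306, Id1 0.21), and that on Ier2 also without the Csf2-/- female (0.201). In cluster 14 that on Nfkbia ended without the Csf2+/- female (0.0525) or male (0.258). In cDC1-like cells the Btg2 call ended without the Csf2+/- female (0.106), Csf2+/- male (0.088) or Csf2-/- male (0.0767), Rgs1 without the Csf2+/- female (0.053) and Nr4a1 without the Csf2-/- male library (0.11). Kept doublets ended those on Btg2 (0.12) and Rgs1 (0.238) in cDC1-like cells, a limit of 5% mitochondrial UMIs that on Btg2 (0.0587), and DESeq2 gave Id1 in cDC2-like cells an adjusted p of 0.109. Markers of other cells moved as well. In cDC1-like cells 6 of 9 B cell markers were higher in both Csf2-/- libraries (sum 131 and 123 CPM against 215 and 193 CPM), with Cd69 at 363 to 470.1 CPM in B-like cells, while the 15 NK and ILC1 markers summed to 256 and 275 CPM against 253 and 177 CPM. The 10 migratory dendritic markers were lower in Csf2-/-, at 354 and 419.5 CPM against 124 and 211 CPM in cDC1-like and 514 and 475 CPM against 228 and 245 CPM in cDC2-like cells, with none at 0 in either class. In cDC2-like cells 6 of 9 classical monocyte markers and 8 of 9 plasmacytoid markers were higher in both Csf2-/- libraries (sums 1146 and 1221 CPM against 1277 and 1739 CPM and 442 and 487 CPM against 564 and 745 CPM, none at 0). In cluster 14, which held 67 and 53 cells in the Csf2-/- libraries, 12 of 15 NK and ILC1 markers were lower in both (sum 112 and 124 CPM against 56.4 and 53.8 CPM, none at 0), as were 7 of 11 cDC2 markers (sum 1008 and 1137 CPM against 795 and 968 CPM, none at 0) and 4 of 10 migratory dendritic markers (sum 286 and 257 CPM against 154 and 151 CPM, Cd200 at 0). There 6 of 13 mitochondrial genes were called lower in Csf2-/-. Their part in the calls was not tested.

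Macrophages and lymphocytes gave few calls. In Mrc1-led macrophage-like cells 2 of 39 members were called against 0.509% of all genes. Hspd1 rose from 98.2 and 109 to 146 and 164 CPM, by 0.57 (SE 0.10, adjusted p = 0.0443), and Cd69 from 20.2 and 21.9 to 41.5 and 43.9 CPM, by 1.01 (SE 0.13, adjusted p = 0.0235), both without overlap. Each call ended without the Csf2+/- female (Hspd1 adjusted p = 0.197, Cd69 0.144) or the Csf2+/- male library (Hspd1 0.108, Cd69 0.0646), and at a coarser clustering (Hspd1 0.18, Cd69 0.763). In the same cells 11 of 15 NK and ILC1 markers were higher in both Csf2-/- libraries (sum 431 and 629 CPM against 1062 and 846 CPM, none at 0), and Cd69 in NK and ILC1-like cells was at 153 to 188 CPM. The part of NK cell RNA in the Cd69 call was not tested. The summed immediate early level in Mrc1-led cells was 39010.1 and 35606 CPM against 35066 and 30869.8 CPM, a log2 ratio of -0.18, the lowest of the 14 classes. In gamma-delta T-like cells Hspa5 rose from 743 and 752 to 1103 and 1219 CPM, by 0.63 (SE 0.10, adjusted p = 0.0235), 1 of 38 members against 0.119% of all genes. That call ended without the Csf2-/- male library (0.19) and with doublets kept (0.0821). In alpha-beta T-like cells Nr4a3 fell from 263 and 285 to 191 and 194 CPM, by 0.53 (SE 0.08, adjusted p = 0.0178), 1 of 39 against 0.163%, and the call ended without the Csf2-/- female (0.15) or male library (0.273). In B-like cells Rgs1 was lower, at 110 and 72 UMIs against 34 and 16 UMIs (-1.12, SE 0.25, adjusted p = 0.0223), 1 of 34 against 0.232%. The call ended without the Csf2+/- male (0.068), Csf2-/- female (0.26) or Csf2-/- male library (0.287), with doublets kept (0.309) and with at most 5% mitochondrial UMIs (0.106), and DESeq2 did not make it. In B-like cells 9 of 15 NK and ILC1 markers were lower in both Csf2-/- libraries (sum 274 and 172 CPM against 29.1 and 60.03 CPM, none at 0), and Rgs1 in NK and ILC1-like cells was at 606 to 801 CPM. In alpha-beta T-like cells 9 of 13 macrophage markers were higher in both Csf2-/- libraries (sum 551 and 354 CPM against 894 and 776 CPM) and 5 of 8 gamma-delta T cell markers lower (sum 837 and 660.0 CPM against 624 and 629 CPM), none at 0. In gamma-delta T-like cells 6 of 7 markers of dividing cells were lower in both (sum 52.3 and 43.0 CPM against 26.6 and 28.4 CPM, none at 0). Their part in these calls was not tested.

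**Figure D5:**
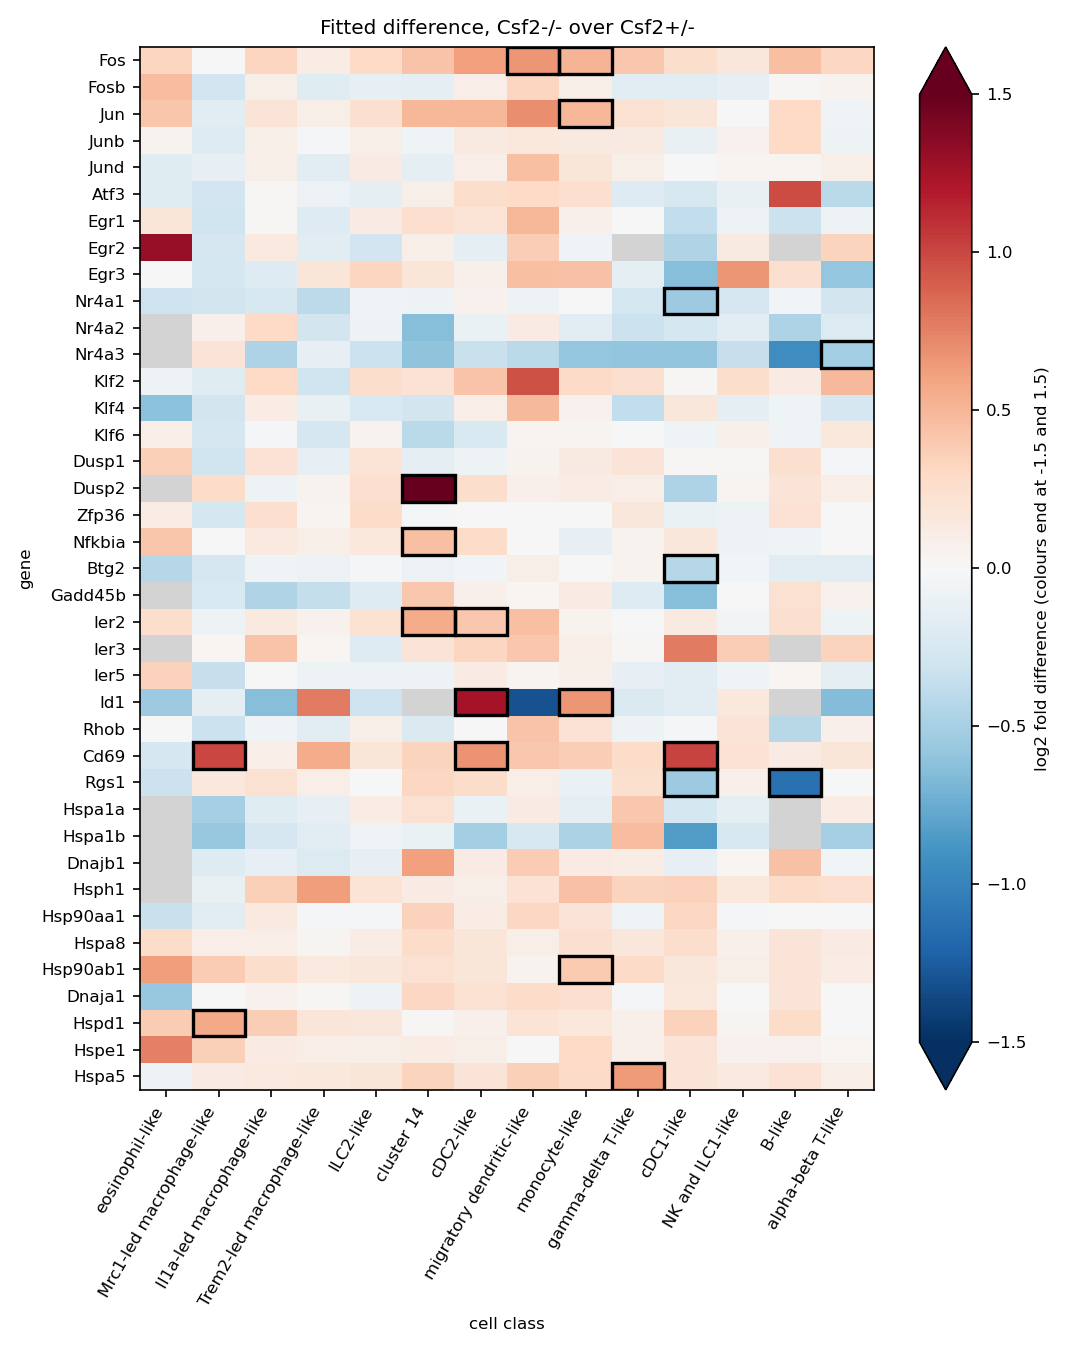
Fitted log2 difference between Csf2-/- and Csf2+/- for each gene (rows) and cell class (columns), red for higher and blue for lower in Csf2-/-. Black frames mark the 20 called pairs and grey cells the 16 pairs below the low-count filter. The Fos row is red in every column but Mrc1-led cells, where it is near white, and the Nr4a3 row is mostly blue.

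As sums, both groups of genes differed little between genotypes. The median over the 14 classes of the log2 ratio was 0.07 for the immediate early genes (range -0.18 to 0.18) and 0.13 for the chaperones (0.01 to 0.24). Within the Csf2-/- genotype, the median log2 ratio of the male over the female library was -0.18 and -0.17. Within the Csf2+/- genotype it was -0.07 and -0.12, no larger in size than the genotype medians. These ratios compare single libraries, whereas the genotype ratios compare means of libraries. The immediate early sum was higher in both Csf2-/- libraries in 5 of 14 classes and lower in both in 1, and the chaperone sum higher in 8 and lower in 0. For Hspa1a, Hspa1b, Dnajb1 and Hsph1 together the median ratio was -0.00022, from -0.75 without the Csf2-/- female to 0.37 without the Csf2-/- male library. Hspa8, Hsp90ab1 and Dnaja1 together were higher in both Csf2-/- libraries in 11 of 14 classes, at a median ratio of 0.18.

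A test over all 14 classes called a genotype difference that depended on the class for 10 of the 39 members. The share over all 13291 genes was 3.15% (edgeR, adjusted p under 0.05). The 10 were Jund, Klf6, Dusp1, Zfp36, Btg2, Atf3, Hspd1, Dusp2, Ier2 and Junb. This fit, with library as a block, had 26 residual degrees of freedom. They come from class sums of the same 4 libraries, which are not independent replicates of a genotype. For Jund (adjusted p = 0.00079) the difference ran from 0.45 in migratory dendritic-like down to -0.19 in eosinophil-like cells. For Klf6 (0.00497) it ran from 0.16 in alpha-beta T-like cells to -0.40 in cluster 14. For Dusp1 (0.00953) it was 0.36 in eosinophil-like and -0.30 in Mrc1-led cells. Neither Fos (0.185) nor Hspa1a was called. The number called was 2 without the Csf2+/- female, 3 without the Csf2+/- male and 4 without the Csf2-/- male library, and was 11 without the Csf2-/- female.

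Between sexes, with genotype in the model, 21 of 530 pairs were called against 0.667% of all pairs, 20 of them lower in males. Dnaja1 fell in 6 classes. In NK and ILC1-like cells it was at 612, 511, 673 and 474 CPM, with both females above both males and a log2 male over female difference of -0.42 (SE 0.06, adjusted p = 0.00128). In Trem2-led cells it was at 467, 316, 508 and 305 CPM (-0.70, SE 0.09, adjusted p = 0.00342) and in B-like cells at 274, 154, 304 and 178 CPM (-0.84, SE 0.16, adjusted p = 5.47e-05). Alpha-beta T-like, cDC2-like and monocyte-like cells were the other classes. There the call ended with doublets kept, and in cDC2-like cells it was kept under 1 of 6 alternatives. In B-like and Trem2-led cells it was kept under all alternatives. Both female libraries lay above both male libraries for Dnaja1 in 12 of 14 classes, Hspa1a in 10 of 12, Hspa1b in 10 of 12 and Ier5 in 10 of 14, against 12.3% over all genes and classes. Hspa1a was called in Trem2-led cells, at 579.8, 395, 591 and 328 CPM (-0.75, SE 0.09, adjusted p = 0.00342). In NK and ILC1-like cells Hsph1, Junb, Jun, Rgs1, Dusp2 and Ier5 were also lower in males, by log2 values from -0.40 (Hsph1) to -0.20 (Ier5), with 4.32% of all genes called in that class. Klf2 fell in B-like, monocyte-like and Trem2-led cells, Atf3 in B-like cells, and Gadd45b and Nr4a2 in Trem2-led cells. Hspa5 in Il1a-led cells was at 1644, 1114, 1791 and 1325 CPM (-0.57, SE 0.07, adjusted p = 0.00138). The call in the other direction was Egr2 in Il1a-led cells, at 51.4, 68.3, 56.5 and 79.2 CPM (0.38, SE 0.08, adjusted p = 0.039). This fit left 1 residual degree of freedom, and with sex as the only term 3 pairs were called. Kept doublets ended the calls on Atf3 in B-like, Klf2 in monocyte-like, and Gadd45b and Nr4a2 in Trem2-led cells. They also ended those on Hspa5 and Egr2 in Il1a-led cells. A limit of 5% mitochondrial UMIs ended the calls on Gadd45b, Nr4a2 and Ier5.

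Other genes of the same pathways were called in 7 of 361 gene and class pairs (1.94%) for immediate early, 2 of 253 (0.791%) for heat shock and 3 of 192 (1.56%) for unfolded protein response genes, and in 15 of 180 (8.33%) for mitochondrial genes, beside 0.696% over all genes. Of 29 further immediate early genes, Ccn1, Tnf and Socs3 were called higher in Csf2-/- in some class and Fosl2 and Per1 lower. Ccn1, a matrix protein induced by serum, rose in Il1a-led cells from 96.0 and 106 to 187 and 181 CPM, by 0.83 (SE 0.09, adjusted p = 0.0112). Tnf rose in cluster 14, from 109 and 114 to 213 and 245 CPM, by 1.06 (SE 0.12, adjusted p = 0.000252), and in cDC2-like cells by 0.48 (SE 0.09, adjusted p = 0.0137), and Socs3, a cytokine signal inhibitor, rose in cluster 14 by 0.61 (SE 0.13, adjusted p = 0.0233). Fosl2, an AP-1 subunit, was lower in cDC1-like (-0.74, SE 0.18, adjusted p = 0.0461) and cDC2-like cells (-0.61, SE 0.09, adjusted p = 0.00351), and the clock gene Per1 in monocyte-like cells (-0.50, SE 0.11, adjusted p = 0.0352). Of 21 further heat shock genes, Stip1, an Hsp70-Hsp90 adaptor, rose in monocyte-like cells by 0.61 (SE 0.13, adjusted p = 0.0348), and Bag3, an Hsp70 cochaperone, was lower in cDC1-like cells at 11.4 and 16.6 CPM against 3.64 and 2.19 CPM (-2.30, SE 0.42, adjusted p = 0.00763). Of 14 unfolded protein response genes, Sdf2l1 rose in gamma-delta T-like cells (0.75, SE 0.10, adjusted p = 0.00457) and cluster 14 (0.69, SE 0.12, adjusted p = 0.00431), and Hsp90b1 in gamma-delta T-like cells (0.66, SE 0.11, adjusted p = 0.0402), the class in which the member Hspa5 rose. Their sum was higher in both Csf2-/- libraries in 9 of 14 classes. Of the 13 mitochondrial genes, mt-Nd3 was lower in 5 classes and mt-Co3 in 4, and their sum was lower in both Csf2-/- libraries in 12 of 14. Median differences of these lists stood between -0.43 (mitochondrial genes in cluster 14) and 0.36 (unfolded protein response genes in gamma-delta T-like cells), beside medians between -0.0075 and 0.0075 over all tested genes.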

How the data were processed

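The deposited matrices hold UMI counts per gene and barcode, made by the authors. Cell Ranger 7.0.0 and GRCm39 are named in the submitters' processing notes. Barcodes under 500 UMIs or 300 genes, or with over 10% mitochondrial UMIs, were left out. Scrublet doublets were removed, at the expected share where its own threshold marked under 0.5% (2 libraries). Cells were clustered with scanpy 1.11.5 (3000 variable genes without the members, 40 components, Leiden 1.5) and classes named from fixed markers, so they are rebuilt and may differ from the study's. Counts were summed per library and class and tested with edgeR 4.0.16 (R 4.3.3; TMM, filterByExpr, quasi-likelihood, Benjamini-Hochberg over all genes of a class). DESeq2 1.42.0, other filters, scalings and clusterings, and each library left out were alternatives. Scripts were tested on simulated data. All 39 members could be named. Of other lists, genes called between genotypes were named, at most 4 a class and list. Members and lists were chosen with earlier results of these data known.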

Additional observations from a re-analysis of the deposited data

Results flagged for a closer look

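For 10 members a genotype difference that depended on the cell class was called in edgeR's test of all class-by-genotype terms. They are listed here for that reason. For Zfp36 (adjusted p = 0.0178) the log2 difference of Csf2-/- over Csf2+/- ran from -0.27 in Mrc1-led macrophage-like cells to 0.27 in ILC2-like cells, for Btg2 (0.0184) from -0.43 in eosinophil-like cells to 0.09 in migratory dendritic-like cells, and for Atf3 (0.0267) from -0.41 in alpha-beta T-like cells to 0.98 in B-like cells. Hspd1 (0.0268) ran from 0.01 in alpha-beta T-like cells to 0.57 in Mrc1-led macrophage-like cells, Dusp2 (0.0377) from -0.46 in cDC1-like cells to 1.55 in cluster 14, Ier2 (0.0423) from -0.08 in Mrc1-led macrophage-like cells to 0.56 in cluster 14 and Junb (0.0439) from -0.20 in Mrc1-led macrophage-like cells to 0.29 in B-like cells. Jund (0.00079), Klf6 (0.00497) and Dusp1 (0.00953) have their ranges given above.

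Among the female libraries Hspa1a was higher in Csf2-/- than in Csf2+/-, and among the male libraries lower, in 12 of 14 classes. Each side had 1 library. In Mrc1-led cells, the class with the most Hspa1a, and in B-like cells it was lower in Csf2-/- in both sexes. The 12 classes include NK and ILC1-like cells and others from which no Hspa1a expression is read. This difference between the sexes was not tested.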

How the results depend on the processing

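Some alternatives tested fewer classes. The limit of 5% mitochondrial UMIs left out cluster 14, which held 3 of the 20 genotype calls. The coarser clustering had neither cluster 14 nor the Trem2-led class. Genotype pairs tested were 490 and 452 there, against 530 in the main fit. The 20 member and class pairs called between genotypes became 24 with DESeq2, 23 at the coarser clustering and 20 with RLE size factors. They became 16 with at most 5% mitochondrial UMIs and 24 with doublets kept, but 60 with no low-count filter. They ranged from 23 to 54 with 1 library left out. The labels carry no replicate numbers, and the 2 female libraries were taken as a pair across genotypes, as were the 2 male libraries. With sex as a replicate block 41 pairs were called, 17 of them among the 20, without Hspa5 in gamma-delta T-like and Hspd1 and Cd69 in Mrc1-led cells. The block added 4 calls in Il1a-led cells (edgeR adjusted p for Gadd45b 0.00775, Hspd1 0.0272, Ier3 0.0166 and Nr4a3 0.011), 4 in NK and ILC1-like cells (Egr3 0.00104, Klf2 0.014, Nr4a1 0.0137 and Nr4a3 0.00759), and Fos in cDC2-like cells (0.000342) and cluster 14 (0.00747), among others. The female minus male difference correlated between genotypes at -0.0137 to 0.369 over the 14 classes. Pairs called between sexes numbered 42 at the coarser clustering, 76 with no filter and 3 with sex as the only term. That test could not be fitted with a library left out. Members whose genotype difference depended on class numbered 3 with the 6 largest classes, 4 with at most 5% mitochondrial UMIs, 34 with no filter, and 2 to 11 with 1 library left out. The median genotype ratio of the sum of Hspa1a, Hspa1b, Dnajb1 and Hsph1 ranged from -0.75 to 0.37 with 1 library left out. That alternative was chosen after seeing the data. The median ratios of the immediate early and the chaperone sums ranged from -0.02 to 0.15 and from 0.04 to 0.22. The share of Mrc1-led cells with an Hspa1a UMI, 60.3% at 2000 UMIs, was 48.2% at 1000 and 78.8% without thinning. Calls on single genes, pooled over the genotype, sex and class-dependent tests, were kept in 310 and lost in 124 of 434 refits. Of the genotype and sex calls 0 reversed direction. The class-dependent test gives no direction, so its calls could not reverse. Causes were not tested. Depth limits eosinophil-like cells most, where 1942 genes passed the filter against 12948 in NK and ILC1-like cells.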

Other observations

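A few cells of the gland's own tissue passed the CD45 sort and entered no comparison, since each of these classes had under 50 cells in some library. Fibroblast-like cells (11 to 17 per library) held Fos at 3803, 4104, 4632 and 4698 CPM and Egr1 at 2299, 2500.3, 2101 and 3000.1 CPM, levels like those of the macrophages. Endothelial-like cells (16 to 48 per library) held Fos at 2284, 2280.2, 2568 and 2574 CPM. They stood apart by Id1, a target of BMP signalling, at 775, 531, 879.8 and 737 CPM. Epithelial-like cells (39 to 211 per library) held Fos at 318, 310.0, 275 and 353 CPM and Hspa8 at 218, 231, 305 and 386 CPM.

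Among leukocytes below that number, neutrophil-like cells (19 to 43 per library) held Klf2 at 1572, 1601, 1880.3 and 1457 CPM and plasmacytoid dendritic-like cells (18 to 31 per library) held Fos at 819, 681, 1291 and 874 CPM. Clusters left unnamed held 3.70%, 3.78%, 6.30% and 4.75% of cells in the same order of libraries.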
